A study of Schizosaccharomyces pombe with 6 samples.

Results

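Rad52 was mapped by chromatin immunoprecipitation on tiling arrays in fission yeast, Schizosaccharomyces pombe, and 133 bins of 1 kb were enriched on all 6 arrays to a similar extent in both strains. They were chosen from 9634 measured bins between 150 and 3700 kb of chromosome I, 150 and 4350 kb of II and 150 and 2370 kb of III. Each value is the log2 ratio of the immunoprecipitated DNA to the input, set to 0 at the median probe of its array, and a bin was taken where it was at least 0.2 on every array. The means of the strains also had to differ by less than 0.4. The ratios chose these bins, so their heights and their likeness between strains are given as a description, without a test. Of the 174 bins at 0.2 or more on all 6 arrays (1.806% of bins), the limit on the strain difference left out 41, of which 34 were higher in the arrays placed with the rad3 deletion. The 133 members formed 120 separate sites, 108 of 1 kb, 11 of 2 kb and 1 of 3 kb.

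Both strains carried cdc25-22, a temperature-sensitive allele of the phosphatase that triggers mitosis, and in 1 of them rad3 was deleted as well. Cultures grew in EMM6S medium, were held for 4 h at 36.5 °C, went back to 25 °C and then received 6 mM hydroxyurea, so that block, release and drug were common to all arrays. Each strain had 3 arrays, none of which was a control immunoprecipitate, and Rad52 and unspecific enrichment cannot be told apart. The immunoprecipitate was green and the input red on every array, so dye effects of single probes do not cancel. The labels give the extracted molecule as total RNA although the series is a genome binding study. They do not say whether replicates were separate cultures.

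Rad52 is a protein of homologous recombination that anneals complementary DNA strands, and it gathers at broken or stalled replication forks. Rad3 is the ATR-like kinase of the DNA damage and replication checkpoint, and hydroxyurea slows forks by depleting nucleotides. Several kinds of genes recur below. Genes of tRNAs and of 5S ribosomal RNA are short and read by RNA polymerase III, tRNA genes from internal promoter elements called the A box and the B box. Small nucleolar RNAs (snoRNAs) guide the modification or cleavage of ribosomal RNA, and small nuclear RNAs (snRNAs) are parts of the spliceosome.

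The labels and the data of 4 of the arrays did not go together. Of 33 probes in rad3, 9 were not above background in both channels on the array listed as cdc25-22 replicate 1, 10 on cdc25-22 replicate 2 and 9 on rad3-deleted replicate 3, against 0 on each of the other 3. In the deposited value table, 5 of 6 columns equalled a scanner file, and the files of replicates 1 and 2 of both strains equalled the column of the opposite strain. The array listed as rad3-deleted replicate 3 equalled its own column. The column of cdc25-22 replicate 3 equalled no scanner file. The choice of bins therefore swapped the files of replicates 1 and 2 between the strains. The arrays listed as cdc25-22 replicate 3 and rad3-deleted replicates 1 and 2 are called the arrays placed with cdc25-22 here, and the other 3 the arrays placed with rad3-deleted. Values per array are given in that order.

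The sequences below are those of small RNA genes in the strongest sites and in a site beside crb2, since short noncoding genes were the clearest annotation shared by the members. They are from NCBI RefSeq, reference ASM294v3, 5′ to 3′ on the gene's strand. The first 3 are 5S ribosomal RNA genes, at chrIII:1702123-1702252 (plus strand), chrII:2261371-2261489 (minus strand) and chrII:4210360-4210500 (minus strand). Capitals mark the longest run of bases, 51 in length, present in all 9 of the 5S rRNA genes in members, which 23 of the 29 measured 5S rRNA genes held.
SPRRNA.06: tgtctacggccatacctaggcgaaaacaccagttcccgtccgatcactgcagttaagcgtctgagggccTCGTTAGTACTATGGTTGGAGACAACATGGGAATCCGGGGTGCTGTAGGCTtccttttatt
SPRRNA.34: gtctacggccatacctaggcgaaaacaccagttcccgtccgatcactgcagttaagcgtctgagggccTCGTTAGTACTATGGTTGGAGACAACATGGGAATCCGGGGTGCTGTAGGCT
SPRRNA.38: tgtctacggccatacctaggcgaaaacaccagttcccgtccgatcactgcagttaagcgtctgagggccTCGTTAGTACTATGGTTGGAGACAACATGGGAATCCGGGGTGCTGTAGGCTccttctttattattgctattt

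The next 5 are tRNA genes, for aspartate at chrII:3939227-3939297 (plus strand), asparagine at chrII:4210053-4210126 (minus strand), arginine at chrI:3443055-3443144 (plus strand), and serine (sup9) and methionine (imt07) side by side at chrIII:1689713-1689809 and chrIII:1689817-1689888 (plus strand). Capitals mark an exact match to the B box consensus on the gene's strand, 11 letters long, with any base allowed where the first pair of genes differ. It was found in 6 of 18 tRNA genes of members and in 56 of 110 measured tRNA genes. Sequences without capitals held no exact match.
SPBTRNAASP.04: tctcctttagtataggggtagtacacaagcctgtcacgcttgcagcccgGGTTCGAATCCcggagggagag
SPBTRNAASN.04: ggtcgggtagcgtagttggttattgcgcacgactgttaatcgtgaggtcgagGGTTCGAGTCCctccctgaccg
SPATRNAARG.01: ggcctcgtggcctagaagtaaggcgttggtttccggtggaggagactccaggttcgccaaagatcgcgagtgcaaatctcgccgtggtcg
sup9: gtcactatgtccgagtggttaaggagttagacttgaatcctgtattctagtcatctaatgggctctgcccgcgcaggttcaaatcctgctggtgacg
imt07: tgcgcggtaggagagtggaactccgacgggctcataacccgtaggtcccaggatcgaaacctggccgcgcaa

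The last 4 are snoRNA genes in a row on the plus strand of chromosome I, at chrI:526937-527036, chrI:527191-527275, chrI:527387-527474 and chrI:527624-527713. Capitals mark CTGA within the last 20 bases, the letters of box D of the box C/D class of snoRNAs, searched on the gene's strand. It was there in 6 of 12 snoRNA or snRNA genes of members and in 25 of 62 measured ones.
snoZ7: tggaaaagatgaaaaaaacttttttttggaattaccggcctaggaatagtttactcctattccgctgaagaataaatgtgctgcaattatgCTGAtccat
snoZ5: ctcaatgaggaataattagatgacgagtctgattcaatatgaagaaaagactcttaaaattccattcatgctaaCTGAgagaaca
snoZ4: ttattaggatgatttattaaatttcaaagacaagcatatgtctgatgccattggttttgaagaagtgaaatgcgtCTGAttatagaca
snoZ3: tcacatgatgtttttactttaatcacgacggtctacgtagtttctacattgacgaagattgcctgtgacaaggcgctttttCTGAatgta

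Across the members the enrichment was modest and similar in height on all arrays. The median of the members was 0.54, 0.48 and 0.49 on the arrays placed with cdc25-22 and 0.54, 0.49 and 0.58 on those placed with rad3-deleted. The highest member reached 1.72, 1.25 and 1.11 on the former and 1.12, 1.08 and 1.52 on the latter. The background varied between arrays as well, since 20.7%, 16.5% and 23.2% of all bins stood at 0.2 or more on the arrays placed with cdc25-22, against 25.4%, 27.2% and 30.6% on those placed with rad3-deleted. The SD of all bins was 0.21 on the array listed as rad3-deleted replicate 1 and 0.54 on the one listed as rad3-deleted replicate 3, so the same threshold was relatively higher on the former. Of the 133 members, 14 were among the top 10% of bins on all 6 arrays, and 0 among the top 5%. The same count is not given for all bins, and the limit on the strain difference had left out 41 of 174 bins. How extreme the members were is therefore not read from these counts.

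**Figure D1:**
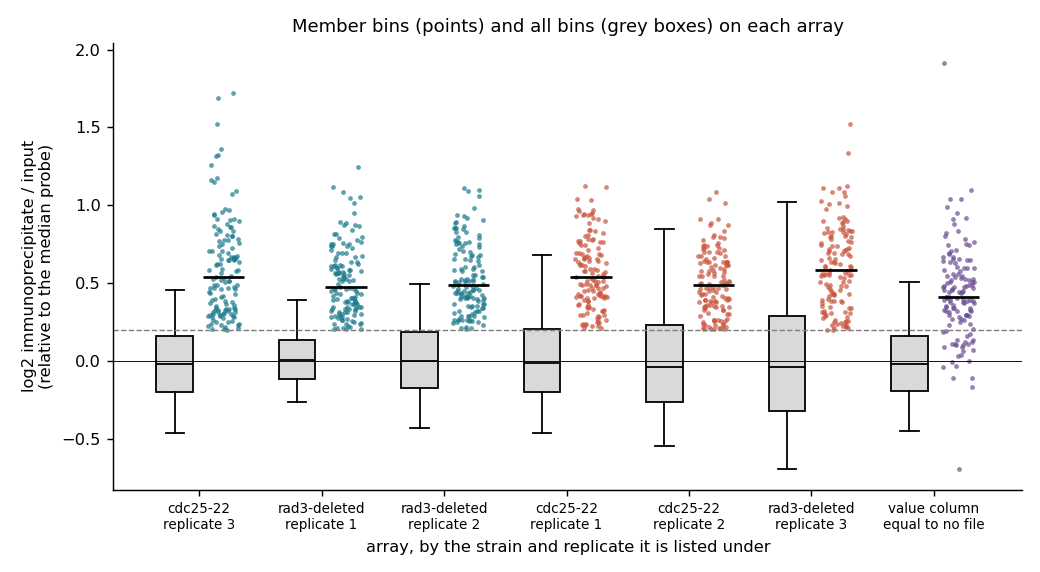
The log2 ratio of immunoprecipitate over input of the 133 members (points, black bar at their median) and of all 9634 bins (grey boxes from quartile to quartile, whiskers from the 5th to the 95th percentile), by array and in the value column that equals no scanner file. Arrays placed with cdc25-22 are blue, those placed with rad3-deleted red, the dashed line is 0.2, and all members lie above it on the 6 arrays because that line chose them.

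The mean over the 6 arrays ran from 0.28 to 1.05 with a median of 0.54, and the SD of a member over the arrays had a median of 0.19. Every member was measured by at least 2 probes on every array. Of their 459 probes, 307 (66.9%) were above 0 on all 6 arrays, against 7.8% of the 34196 probes of all bins. The rule averaged these same probes, so a higher share was fixed by the choice and nothing is read from it. At the edge of the rule, a bin with no coding or small RNA gene, at chrIII:1452001-1453000, entered with a lowest array of 0.2006. The next bin, at cbl1, entered with 0.2008. Bins at SPBC405.03C with 0.1995 and SPAC1705.02 with 0.1982 stayed outside. At the limit on the strain difference, rad3-deleted minus cdc25-22, the bins of SPCPB1C11.03 (-0.3844) and eno101 (-0.386) were inside. Those of ecl2 (0.4167) and rps3 (-0.4205) were outside. The array listed as rad3-deleted replicate 3 decided most about the number: without it 203 bins met the rule, 132 of them among the 133. Quantile normalization between arrays kept 71 of the 133 among 124 bins.

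The ratio chose the members, so a higher immunoprecipitate, a lower input or both were built into the choice. The channels are given as a description. The signal of the immunoprecipitate, relative to the array's median, had a 6-array mean of 0.36 on the log2 scale at the median member and -0.05 at the median bin. The input had -0.15 and -0.03. The immunoprecipitate was above 0 on all 6 arrays in 65 members (48.9%, against 25.5% of all bins), and the input was below 0 on all 6 arrays in 54 (40.6%, against 34.3%). On the arrays listed under replicate 2, the median input of the members was -0.27 for cdc25-22 and -0.25 for rad3-deleted. It was -0.12 to -0.05 on the other 4. Over all bins the median input lay between -0.056 and -0.005 on every array. The part of the lower input in the ratio was not tested further.

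The value column that equals no scanner file gave a readout that the choice of bins had not used. It is labelled cdc25-22 replicate 3. Its Pearson r over the bins was 0.40 with the file listed for that sample, 0.22 and 0.18 with the other arrays placed with cdc25-22, and 0.44, 0.46 and 0.59 with those placed with rad3-deleted. The points share the probes and their base composition. What array or treatment of the data the column stands for is not given, so it is a single readout without replicates. In it, 106 of 133 members stood at 0.2 or more (79.7%, exact 95% binomial interval 71.9 to 86.2%), against 1993 of 9634 bins (20.7%). The interval covers counting error over bins only, and neighbouring bins are not independent. The median was 0.41 in members and -0.02 in all bins, and 126 members were above 0. The share at 0.2 or more rose with the number of scanner arrays at that level, from 5.8% of bins with 0 arrays through 13.3%, 25.7%, 37.5%, 51.9% and 62.0% to 81.0% of bins with all 6. The 7 members below 0 in this column were at gar2 (-0.70), SPAC3H8.08C, aim21, nem1, mrpl6, orc5 and rga5, which have 6-array means of 0.28 to 0.44. These genes were singled out after their values were seen.

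Small RNA genes were the annotation that stood out. A tRNA, 5S rRNA, snoRNA or snRNA gene overlapped 31 of 133 members (23.3%, exact 95% binomial interval 16.4 to 31.4%), against 204 of 9634 bins (2.1%). By class, 15 members (11.3%) held a tRNA gene against 1.2% of all bins, 9 (6.8%) a 5S rRNA gene against 0.4%, and 9 (6.8%) a snoRNA or snRNA gene against 0.6%. Counted by gene, 18 of 110 measured tRNA genes (16.4%), 9 of 29 5S rRNA genes (31.0%) and 12 of 62 snoRNA or snRNA genes (19.4%) touched a member. Long terminal repeats, the remains of retrotransposons, were in 2 members (1.5%, against 1.7% of bins). These shares, and those of the other annotations and sequence features below, are counts beside the background of all bins, without an enrichment test.

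**Figure D2:**
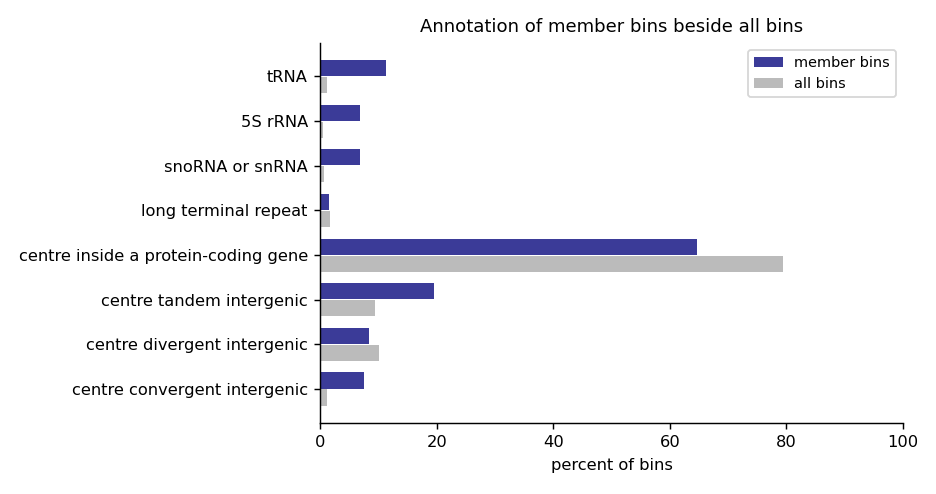
Percent of the 133 members (dark bars) and of all 9634 bins (grey bars) that overlap each annotation, or whose centre lies in the kind of region named. The 3 classes of small RNA genes and the tandem and convergent intergenic regions had a larger share of the members than of all bins, and gene interiors a smaller one. Without the small RNA bins, which are included here, gene interiors had 78.4% of members and 80.6% of bins.

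The ratio was raised in the small RNA bins as a class. Over all 204 such bins the 6-array mean had a median of 0.25, and over the 9430 others -0.02. By class the medians were 0.23 for tRNA, 0.42 for 5S rRNA and 0.24 for snoRNA or snRNA bins. In the value column that equals no scanner file, 66.2% of all small RNA bins were at 0.2 or more, against 19.7% of the others. Among members it was 27 of 31 with a small RNA gene (87.1%) and 79 of 102 without one (77.5%). Since many of these genes have near-identical copies, their probes were counted: 22 of the 105 probes in these 31 members overlapped the small RNA gene itself, in 20 of the members. None of the 34196 probe positions in the ranges shared a stretch of 40 bases with another place in the reference, so 0 probes of members did.

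The site with the highest value on its lowest array held SPRRNA.06, the 5S rRNA gene printed first, at chrIII:1702001-1703000. Its log2 ratio was 1.52, 1.25 and 0.83 on the arrays placed with cdc25-22 and 1.04, 0.76 and 0.90 on those placed with rad3-deleted, and 0.95 in the unmatched column. It was thus the top site of the members on average (1.05 ± 0.29, SD, n = 6 arrays), and the arrays of the 2 placements overlapped. SPRRNA.34 had 0.81, 0.57 and 0.49 and then 0.68, 0.70 and 0.62. SPRRNA.35, which lies between the helicase gene spb4 and a prolyl-tRNA ligase gene, had 0.71, 0.38 and 0.56 and then 0.55, 0.91 and 1.01. All 9 members with a 5S rRNA gene had 6-array means between 0.38 and 1.05, and the unmatched column gave them 0.11 to 0.95.

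The row of snoZ7, snoZ5, snoZ4 and snoZ3 made up the site with the second highest 6-array mean, at chrI:527001-528000. It also touched the end of psf3, which encodes a subunit of the GINS complex of the replicative helicase. The ratios were 1.36, 1.12 and 0.68 on the arrays placed with cdc25-22 and 1.12, 0.59 and 0.82 on those placed with rad3-deleted, and the placements overlapped. The H/ACA box snoRNA gene sno12 on chromosome III had 0.84, 0.63 and 0.46 and then 0.57, 0.63 and 0.64. The other members of this class were at snu2 and snu4, for the spliceosomal U2 and U4 RNAs, and at snR33, snR10, snoR39a, snoR61 and snu32. The 6-array means of the class ran from 0.40 to 0.95.

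The tRNA pair sup9 and imt07, printed above, came next. Its site at chrIII:1689001-1690000 had 1.26, 1.08 and 0.76 and then 0.89, 0.70 and 0.92, with overlap between the placements. The site of the arginine tRNA gene SPATRNAARG.01, upstream of the proteasome subunit gene rpt5, had 0.88, 0.53 and 1.06 and then 0.92, 0.64 and 1.34, so a high and a low array were found in each placement. It had the highest value of all bins in the unmatched column (1.91). The aspartate tRNA gene SPBTRNAASP.04 and the thiazole synthesis gene thi2 shared a 2 kb site that varied least among the 15 top sites, with 0.67, 0.75 and 0.63 and then 0.70, 0.61 and 0.62. These values are means of 2 bins, and sites of 1 kb are not averaged in this way. Alone, the bins had SDs over the arrays of 0.14 and 0.23, against 0.05 for the joined site. The members with a tRNA gene had 6-array means between 0.35 and 0.94.

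**Figure D3:**
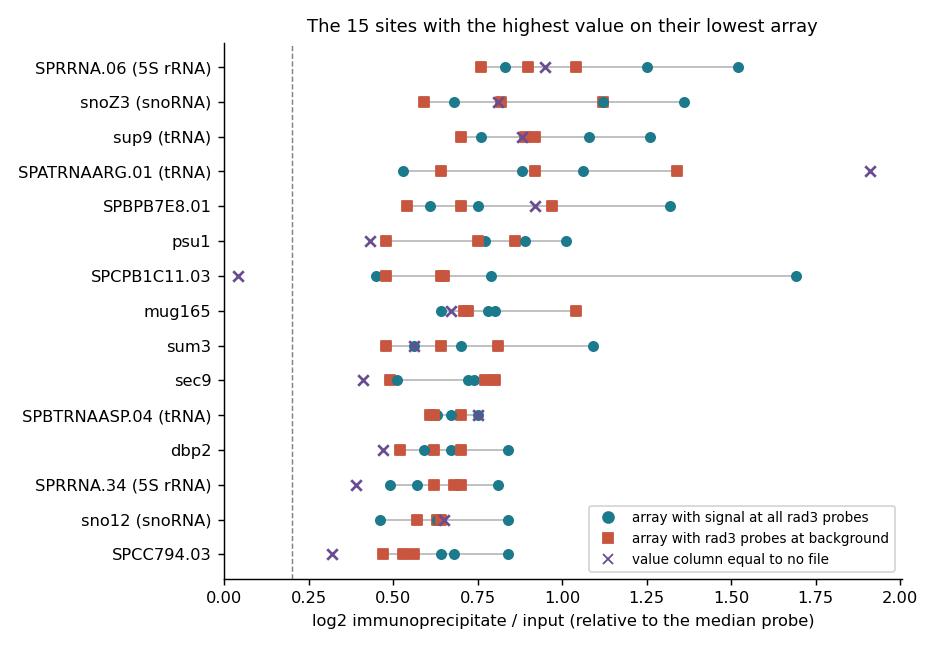
The log2 ratio of immunoprecipitate over input of the 15 sites with the highest value on their lowest array, for each array (circles for the 3 arrays placed with cdc25-22, whose rad3 probes all gave signal, and squares for the 3 placed with rad3-deleted) and in the unmatched value column (crosses). Grey lines span the 6 arrays, the 4 sites with the highest means hold small RNA genes, and in 14 of the 15 sites the placements overlap.

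Of the 102 members without a small RNA gene, 80 had their centre in a protein-coding gene, 14 between genes in tandem, 6 between divergent genes and 2 between convergent genes. Their 6-array means ran from 0.28 to 0.89. In members with and without small RNA genes together, centres inside protein-coding genes made up 86 (64.7%, against 79.4% of bins). Tandem intergenic centres made up 26 (19.5%, against 9.4%), convergent ones 10 (7.5%, against 1.2%) and divergent ones, the places where gene starts face each other, 11 (8.3%, against 10%). Without the small RNA bins the convergent share was 2 of 102 members (2.0%), against 0.9% of 9430 bins, and the tandem share 14 (13.7%), against 8.9%. Centres inside protein-coding genes then made up 80 (78.4%, against 80.6%), close to the share of all such bins, and divergent ones 6 (5.9%, against 9.7%). Touching no coding or small RNA gene was as common in members (6, 4.5%) as in all bins (4.6%).

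Inside genes, the members lay towards the end of the transcript. Of the 86 centres in genes, 57 (66.3%) were in the last of 3 equal stretches of the annotated transcript, 14 in the middle and 15 in the first. Of all 7647 bins centred in genes, 32.5% were in the last stretch. The median position was 0.80 of the transcript in members and 0.49 in all bins, and it was the same 0.80 in the 80 without a small RNA gene. A gene end lay a median of 420 bp from the centre of a member and 794 bp from that of any bin. A gene start lay 930 and 692 bp away. The distance from an end was at most 500 bp in 75 members (56.4%, against 33.7%) and from a start in 38 (28.6%, against 37.6%). In the unmatched column, 20.9% of all bins in last stretches were at 0.2 or more, against 12.9% in middle and 15% in first ones.

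**Figure D4:**
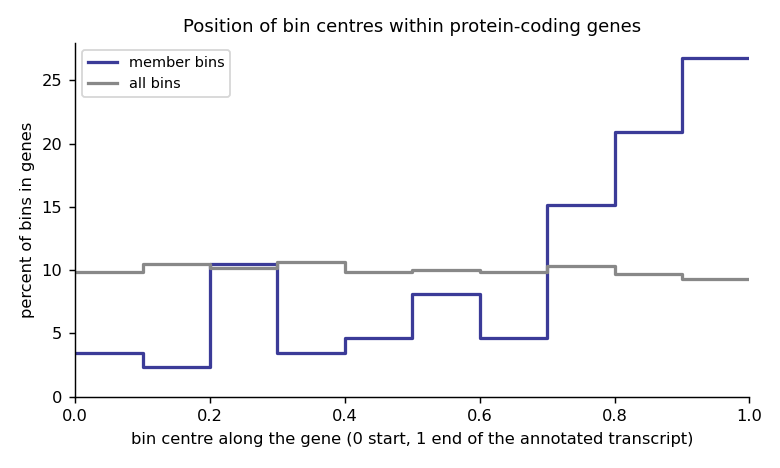
Where the bin centres lie along the annotated transcript (0 start, 1 end), as percent of bins centred in protein-coding genes in 10 equal steps, for the 86 members (blue) and all 7647 bins (grey). All bins are spread evenly and the members gather in the last of 3 equal stretches, which held 57 of them.

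Many of the strongest sites without a small RNA gene covered the end of a transcript, but not all. Within eng1, whose endoglucanase splits the septum between daughter cells, a 2 kb site had 1.52, 0.37 and 0.80 on the arrays placed with cdc25-22 and 0.79, 0.94 and 0.64 on those placed with rad3-deleted. The array listed as cdc25-22 replicate 3 was far above the other 5 there. At the end of psu1, a cell wall beta-glucosidase gene, the values were 0.77, 0.89 and 1.01 and then 0.86, 0.48 and 0.75. The placements overlapped at both genes, and the unmatched column gave 0.15 at eng1 and 0.43 at psu1.

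At the overlapping ends of mug165 and the ribosomal protein gene rps2202, the values were 0.80, 0.78 and 0.64 and then 1.04, 0.72 and 0.71. At the end of SPBPB7E8.01, an uncharacterized gene, they were 1.32, 0.61 and 0.75 and then 0.97, 0.70 and 0.54. The end of the cysteine transporter gene SPCPB1C11.03 had 1.69, 0.45 and 0.79 and then 0.65, 0.64 and 0.48. At the last of these the array listed as cdc25-22 replicate 3 again stood alone, and the unmatched column was at 0.04. All 3 sites overlapped between placements.

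The end of sum3, the gene of an RNA helicase of translation initiation, had 0.70, 0.56 and 1.09 and then 0.81, 0.64 and 0.48. Another RNA helicase gene, dbp2, had 0.59, 0.67 and 0.84 and then 0.62, 0.52 and 0.70 over a 2 kb site at its end. The secretory SNARE gene sec9 had 0.51, 0.74 and 0.72 and then 0.80, 0.49 and 0.77. In these 3 sites no array was apart from the others by placement.

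In 17 of 133 members (12.8%), 9 of them higher with rad3-deleted, the placements did not overlap although their means differed by less than the limit. Among all bins the placements did not overlap in 34.7%, and nothing is read from the lower share because the limit chose the members. At the thiamine transporter gene SPCC794.03 the means of the 2 kb site were 0.84, 0.68 and 0.64 and then 0.56, 0.47 and 0.53. They were all lower in the arrays placed with rad3-deleted, but in each bin of the site alone the placements overlapped. At gln1, the glutamine synthetase gene, the means of the 2 kb site were 0.44, 0.66 and 0.67 and then 0.84, 0.75 and 0.96. These were all higher in the arrays placed with rad3-deleted, but in the bin at chrI:1597001-1598000 alone the placements overlapped. The glucose transporter gene ght5 had 0.37, 0.49 and 0.54 and then 0.67, 0.74 and 0.67, also higher. No test stands behind the direction at these sites.

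The only site of 3 kb covered the spermidine transporter gene mfs3 with 13 probes. Its mean was 0.43, 0.52 and 0.60 and then 0.56, 0.48 and 0.64, and its lowest and highest arrays were closer together than at most sites. Averaging over 3 bins enters this comparison. Alone, the bins had SDs over the arrays of 0.154, 0.174 and 0.155, against 0.08 for the joined site. Of the list of nutrient and ion transporters, 5 of 21 measured genes (23.8%) touched a member, amt1 for ammonium, ctr6 for copper, ght5 for glucose, ptr2 for peptides and zrt1 for zinc. All measured protein-coding genes had 154 of 4088 (3.8%). The site between zrt1 and sir2, whose ends overlap, had 1.16, 0.82 and 0.81 and then 0.90, 0.70 and 0.44. The array listed as rad3-deleted replicate 3 was lowest there, and the placements overlapped.

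Genes of the cell wall and septum had 4 of 15 (26.7%), with bgs4 and ecm33 beside eng1 and psu1. Ribosomal protein genes had 10 of 118 (8.5%), at rpl3202, rpl3802, rpl402, rpl4301, rpl44, rpl502, rps2202, rps3002, rps602 and rps901. The site at the end of rpl502 and srp1 had 0.91, 0.24 and 0.41 and then 0.78, 0.67 and 1.03. Chaperones had 2 of 13 (15.4%). At sks2, a ribosome-associated Hsp70, the values were 0.78, 0.87 and 0.89 and then 0.78, 0.84 and 0.32, so that 5 arrays lay close together and the one listed as rad3-deleted replicate 3 lay below. In the bin that holds most of its length over the end of the oxidoreductase gene SPAC1F5.03C and only the last bases of pdi1, the protein disulfide isomerase gene, they were 0.23, 0.39 and 0.39 and then 0.42, 0.54 and 0.70, all higher in the arrays placed with rad3-deleted.

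The lists closest to the known work of Rad52 are read against the 3.8% of all protein-coding genes. Among recombination and checkpoint genes 2 of 17 (11.8%) touched a member, and both of these sites also held small RNA genes. The bins reached only the first bases of crb2 and the last bases of rad9. At crb2, the checkpoint mediator, the bin held SPRRNA.38 and SPBTRNAASN.04, printed above, and had 0.82, 0.58 and 0.25 and then 0.77, 0.47 and 0.58. At rad9, part of the checkpoint clamp, it held snoR39a and had 0.62, 0.55 and 0.34 and then 0.24, 0.29 and 0.38. Replication genes had 2 of 26 (7.7%), psf3 in the snoRNA site and orc5, of the origin recognition complex. The bin of orc5 had 0.25, 0.36 and 0.59 and then 0.42, 0.45 and 0.53, and -0.03 in the unmatched column.

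Of 15 targets of the MBF factor, which drives genes of S phase entry, cdc18 touched a member (6.7%, against 3.8% of all genes). It loads the replicative helicase onto origins. Its values were 0.52, 0.75 and 0.62 and then 0.51, 0.25 and 0.24, higher in the arrays placed with cdc25-22, with 0.52 and 0.51 as the nearest values. Glycolysis and fermentation had 1 of 13 (7.7%), the enolase gene eno101, with 1.09, 1.01 and 0.66 and then 0.95, 0.39 and 0.28. Lipid synthesis had 1 of 13 (7.7%), the sterol oxidase gene erg25, with 0.59, 0.55 and 0.85 and then 0.49, 0.41 and 0.61. The cytoskeleton list had 1 of 8 (12.5%), the profilin gene cdc3, of which only the last bases lay in a bin with the isoleucine tRNA gene SPATRNAILE.02. Core histones (8 genes) and translation factors (6 genes) had 0. Since nearly all bins touch some gene and the lists are short, these shares are counts and no test was made of them.

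The highest sites that touched no coding or small RNA gene were at chrI:2939001-2940000 and chrII:1557001-1558000. The former had 0.44, 0.67 and 0.65 and then 0.79, 0.80 and 1.11. The latter had 0.65, 0.33 and 0.59 and then 0.48, 0.73 and 0.88. The former was higher in the arrays placed with rad3-deleted without overlap, the latter overlapped. All 6 members without a coding or small RNA gene were above 0.2 in the unmatched column, where they had 0.44 to 0.91.

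Genes in members used codons more like those of ribosomal protein genes. The codon adaptation index, a score of that likeness from the coding sequence alone, had a median of 0.447 over the 114 genes with at least 200 bases in a member, ribosomal protein genes left out, and 0.417 over all 3956 such genes. As background, genes with a high index tend to be strongly expressed in yeasts, but expression was not measured here. Of the 114 genes, 33 (28.9%) were in the top 10% of all genes. Genes without an intron made up 64.9%, against 51.8%.

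Members were slightly richer in A and T, with a median of 65.3% against 64.0% of all bins. With small RNA genes it was 68.2% in members and 67.6% in all such bins, and without them 64.2% and 63.9%. Letters were searched on both strands of the whole bins. The B box consensus was in 6 members (4.5%, against 0.6% of bins) and in 0 members without a small RNA gene. The HomolD box CAGTCACA of ribosomal protein promoters was in 6 (4.5%, against 1.9%), the HomolE box in 1 (0.8%, against 0.6%), TATAAA in 109 (82.0%, against 73.7%), a run of A10 or T10 in 30 (22.6%, against 14.0%), the MBF site ACGCGT in 5 (3.8%, against 6.9%) and the Atf1 site TGACGT in 19 (14.3%, against 15.3%). In members without a small RNA gene the run of A or T stood at 20.6%, against 13.7%. The HomolD box stood at 2.9% there, against 1.8%, and TATAAA at 78.4%, against 73.3%. A match says only that the letters are there.

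Adjacent members were joined to sites, so no bin next to a site met the rule. A fall of the signal beside sites was thus built into the choice, and their width was not tested. The 6-array mean had a median of 0.54 in sites and 0.20 in the 234 measured bins next to them, of which 117 were at 0.2 or more and 35 below 0. At a distance of 3 bins the medians were 0.08 and 0.06 beside sites with a small RNA gene and 0.06 and 0.08 beside the others. Sites lay a median of 47 kb apart, 16 of 117 gaps were under 10 kb, and the longest stretch without a site was 395 kb. By chromosome, I held 48 members (36.1%, the same share as of all bins), II 63 (47.4%, against 42.3%) and III 22 (16.5%, against 21.5%).

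**Figure D5:**
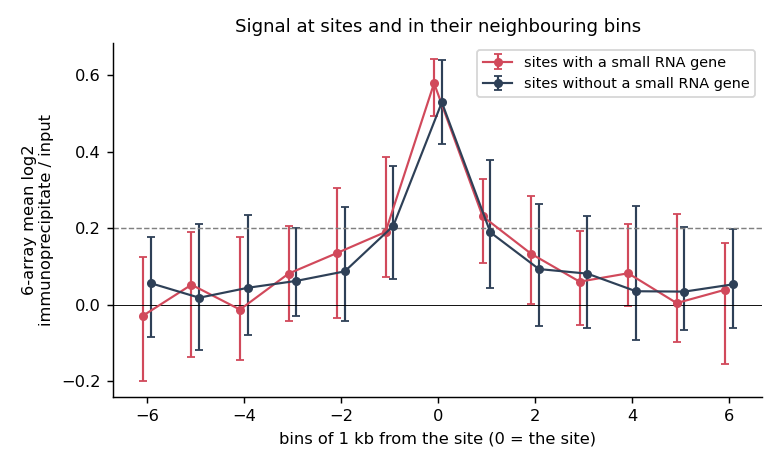
The 6-array mean log2 ratio in sites (0) and in bins up to 6 kb to either side along the chromosome, as median with quartiles, for the 31 sites with a small RNA gene (red) and the 89 without one (dark). Both profiles fall to a median of about 0.2 in the next bin and to 0.08 or less at 3 bins. The rule shaped this fall, as no bin next to a site met it.

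Between the strains, 0 of 133 members were called different in a limma fit over the files as listed (Benjamini-Hochberg threshold 0.05). In that fit 0 of 11905 bins were called (0%), and 128 bins and 1 member had an unadjusted p under 0.05. With the files of replicates 1 and 2 swapped, 1909 of 11905 bins were called (16.0%), 1454 of them higher with rad3-deleted, and 0 of the members, where the lowest adjusted p was 0.119 and 2 had an unadjusted p under 0.05. Nothing is read from these member counts, because the limit on the difference chose the bins. The p-values measure only the spread between these arrays. The difference of the members, rad3-deleted minus cdc25-22 with the files swapped, ran from -0.39 to 0.38 with a median of 0.01, and 68 were higher and 65 lower. As listed it ran from -0.64 to 0.36 with the same median.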

How the data were processed

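Per the submitters' processing notes, the 6 arrays were read with Agilent Feature Extraction 10.7.3.1. Signals are intensity values of spots, which the authors' scanner software had corrected for background and dye in the processed columns, per the file headers. The log ratio deposited beside them is on a log10 scale, input over immunoprecipitate, and was not used. The separate table of values deposited by the authors is a ratio on a linear scale, and in 5 of 6 columns the 42641 nuclear probes match those of a scanner file within 0.001 log2.

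Here log2 of green over red processed signal was centred on each array's median. Outlier-flagged spots were left out, and probes were averaged per array in 1 kb bins with at least 2 measured probes (11917 bins, 9634 in the ranges). The arrays' number limits the precision. Their share of probes well above background was 84.9 to 99.3%. The array listed as cdc25-22 replicate 3 had 2137 outlier-flagged spots, against 6 to 523 on the others. Array positions are on a genome build dated 2002 in the headers. Probe sequences were not aligned. Positions were shifted along reference ASM294v3 by up to 7 kb, and in 200 of 200 segments of 50 kb in the ranges the spread of probe G+C share was lowest at no shift. Sequences and genes come from that reference.

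Strains were compared with limma 3.58.1 (R 4.3.3), and all else was computed in Python 3.11.15 with matplotlib 3.10.9, scipy 1.17.1, pandas 2.3.3 and numpy 2.4.6. The fit was checked on simulated data. The members, gene lists and tests were chosen with earlier results of these data known. Named were the 15 sites highest on their lowest array, the 5 longest and the bins next to each threshold. Also named were the 2 highest of each small RNA class, of each gene list and of sites without a coding or small RNA gene. For the replicate numbers, deviations from the strain means correlated at -0.12, -0.41 and -0.65 as listed and at 0.28, 0.20 and 0.17 with the files swapped.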

Additional observations from a re-analysis of the deposited data

How the results depend on the processing

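The number of members, 133, depended on the settings. It was 77 with median signals (64 shared), 50 with normexp background correction (39 shared), 54 with 2 kb bins, 58 with a threshold of 0.3 and 271 with 0.1. Quantile normalization gave a similar number, 124, but shared 71 of the 133, and the value table gave 131 with 102 shared. Leaving out each array in turn gave 130 to 203. The share at 0.2 or more in the unmatched column, 79.7%, was 88.0% with normexp, 91.4% with a threshold of 0.3 and 70.8% with 0.1, and 72.1 to 78.5% without each array. It was 100% with the value table, whose rule includes that column. The share with a small RNA gene, 23.3%, was 37% with 2 kb bins and 18.7 to 23.8% without each array. The median A+T was 66.3% with median signals, 66.4% with 500 bp bins, 63.8% with 2 kb bins and 64.3 to 65.4% without each array. The cause of these shifts was not tested. The files have no mean signals, so normexp used median signals. No member was called different between the strains in any of the 14 other fits. Nothing is read from this, since the limit on the difference chose the members. Bins of any kind were called only with the files swapped and with the value table. With the replicate block 0 members and 0 bins were called as listed. With the files swapped, the block gave 0 members, 12 with an unadjusted p under 0.05, and 2605 of 11905 bins (21.9%), 1909 without it. The numbers paired the swapped arrays (every correlation over 0.1). The fit of the value table called 1021 of 12038 bins. Without a control immunoprecipitate or a dye swap, none of the settings separates Rad52 from unspecific signal. Dim probes were present in 73 of 133 members, against 4319 of 9634 bins. With dim probes left out, 98 bins met the rule, 87 of them among the 133. In members 99 of 459 probes were dim on at least 1 array, against 5587 of 34196 in all bins.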

Other observations

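Product names beyond the gene lists, searched after the members had been seen, gave further groups, which are therefore descriptions. Names with transporter or carrier belonged to 13 of 135 measured genes touching a member (9.6%, against 3.8% of all genes), among them bsu1, str1, yea4, ggc1 and gms1. Names with thiamine, thiazole or pyrimidine kinase belonged to 4 of 10, at the phosphatase gene pho4, thi201, thi2 and SPCC794.03. Names with the proteasome had 3 of 32 (rpt5, pup3 and pre10), and names with a helicase 4 of 46 (dbp7, spb4, dbp2 and sum3).

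The members were not ranked alike by the arrays. Over the 133 members, the 2 arrays listed under replicate 1, which are placed with different strains, had a Pearson r of 0.66, against 0.33 over all bins. Of the arrays placed with rad3-deleted, those listed as rad3-deleted replicate 3 and cdc25-22 replicate 2 had 0.35, against 0.81 over all bins. The cause of the rise in the former pair and the fall in the latter was not tested. Choosing bins by a floor and by a like mean in both strains narrows the range over which members can vary, and the points share probes and base composition. The array listed as rad3-deleted replicate 3 held the highest value of 41 members and that listed as cdc25-22 replicate 3 of 35, and the array listed as cdc25-22 replicate 2 held the lowest value of 34.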
